A study of Rattus norvegicus with 13 samples.

Results

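miR-26a and miR-26b are a pair of closely related microRNAs (miRNAs), which pair with messenger RNAs and reduce the protein made from them. They were taken here as the 2 miRNAs named rno-miR-26a and rno-miR-26b among the 677 rat miRNAs of the array. Both were measured in the fat of 13 female Sprague Dawley rats aged 14 weeks. The HFD group held 6 daughters whose fathers ate high-fat pellets (43% fat), and the Control group held 7 daughters whose fathers ate chow (9% fat). Mating, to females on chow, took place when the fathers were 15 weeks old, and every daughter was weaned onto chow at 3 weeks. The daughters' own diet was thus the same in both groups, and the father's diet was the compared factor. Litters, sires and the fat depot are not named in the labels. The p-values therefore measure the spread between the animals as labelled, and sisters, if any, were counted as separate animals.

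miR-26a and miR-26b lie inside genes of the Ctdsp family, which encode phosphatases acting on the tail of RNA polymerase II, and are known to be made together with their host transcripts. In human adipose precursor cells, both are known to rise as the cells turn into fat cells and to favour that step. In mice, the family is known to restrain the growth of white fat. A well-known target of the family is EZH2, a histone methyltransferase.

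The mature sequences show why these miRNAs are read as a family, and why a hybridisation array must tell them apart by few bases. In RefSeq (build GRCr8), miR-26a comes from the 5′ arm of its hairpin at chr8:127633063-127633084 on the plus strand, within the span of Ctdspl. miR-26b comes from the 5′ arm of its hairpin at chr9:83425723-83425743 on the plus strand, within the span of Ctdsp1. Whether the hairpins lie in introns cannot be read from the gene spans used here. Capitals mark the seed, bases 2 to 8, the part that pairs with targets.
miR-26a: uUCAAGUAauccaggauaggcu
miR-26b: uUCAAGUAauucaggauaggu
The seed UCAAGUA was identical in both, and no other of the 724 rat mature miRNA entries of RefSeq held it. miR-26a had 22 bases and miR-26b 21. Over the 21 positions compared from the 5′ end, 19 were identical. The differences were C11U and C21U, counted from 1 at the 5′ end, with the base of miR-26a first and that of miR-26b last. Their first 10 bases were thus the same, and neither substitution lay in the seed.

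The opposite arms of the same hairpins, named miR-26a* and miR-26b* on the array, resemble each other less. In the hairpins below, capitals mark the mature arms, the 5′ arm first.
Mir26a hairpin: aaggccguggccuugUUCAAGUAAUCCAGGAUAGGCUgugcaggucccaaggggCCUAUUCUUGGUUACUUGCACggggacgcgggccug
Mir26b hairpin: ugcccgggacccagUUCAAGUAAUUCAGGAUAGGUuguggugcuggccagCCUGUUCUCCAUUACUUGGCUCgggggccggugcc
Of 21 positions compared between the opposite arms, 14 were identical, and their seeds differed, CUAUUCU in miR-26a* and CUGUUCU in miR-26b*. Neither opposite arm was detected on any of the 13 arrays. Of 260 spots, 2 of miR-26a* and 0 of miR-26b* were well above background, and the brightest spot reached 46.3 and 26.6 intensity units. In contrast, all 260 spots of miR-26a and all 260 of miR-26b were well above background. The signal of both hairpins in this fat was thus read from the 5′ arms.

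The arrays gave a steady reading of both members. Each was read by 2 probes with 10 spots a probe on every array, and spots with an outlier flag, 8 of miR-26a and 7 of miR-26b, were left out. Mean intensities of the 2 miR-26a probes ran from 5776 to 9921 and from 8099 to 13727. Those of the 2 miR-26b probes ran from 2616 to 4213 and from 3040 to 4858. The spots of a probe on an array varied by a median of 4.62% and 4.07% (coefficient of variation) for miR-26a and 4.39% and 2.65% for miR-26b, and no spot on any array was saturated. Probes differ in brightness for a given amount of RNA, so the intensities of the 2 miRNAs were not set against each other.

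Before any scaling, the deposited total gene signal, which sums the probes of a miRNA, did not separate the diets. For miR-26a it ran from 8548 (HFD 620) over a median of 10630 to 14960 (HFD 629) in HFD, against 9149 (Control 627), 10959 and 12443 (Control 656) in Control. For miR-26b it ran from 3517 (HFD 620) over 4132 to 5738 (HFD 629) in HFD, against 3490 (Control 627), 4221 and 4970 (Control 656) in Control. HFD 629 lay above the Control range for both miRNAs, and HFD 620 lay below it for miR-26a. The difference in mean signal, HFD minus Control, was 35.5 units for miR-26a (two-sided exact permutation p = 0.976) and -53.2 units for miR-26b (two-sided exact permutation p = 0.916, both adjusted to 0.976 over 5 such tests). The highest signal was 1.75 times the lowest for miR-26a and 1.64 times for miR-26b, and this spread includes the brightness of each array as a whole.

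After each array was scaled to the 75th percentile of its 260 probes detected on all arrays, the spread narrowed to 1.18-fold for miR-26a and 1.19-fold for miR-26b. The levels below are log2 of this scaled signal. The level of miR-26a in HFD had a lowest value of 2.05 (HFD 620), a median of 2.10 and a highest value of 2.28 (HFD 619), against 2.06 (Control 631), 2.17 and 2.25 (Control 627) in Control. The groups overlapped. HFD held the highest array and the 2 lowest, HFD 620 and HFD 663, and 4 of 6 HFD arrays lay below the Control mean. The level of miR-26b was 0.703 (HFD 663), 0.781 and 0.937 (HFD 619) in HFD, against 0.691 (Control 631), 0.864 and 0.930 (Control 658) in Control. These groups overlapped as well, with 5 of 6 HFD arrays below the Control mean, while HFD 619 held the highest level of all.

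**Figure D1:**
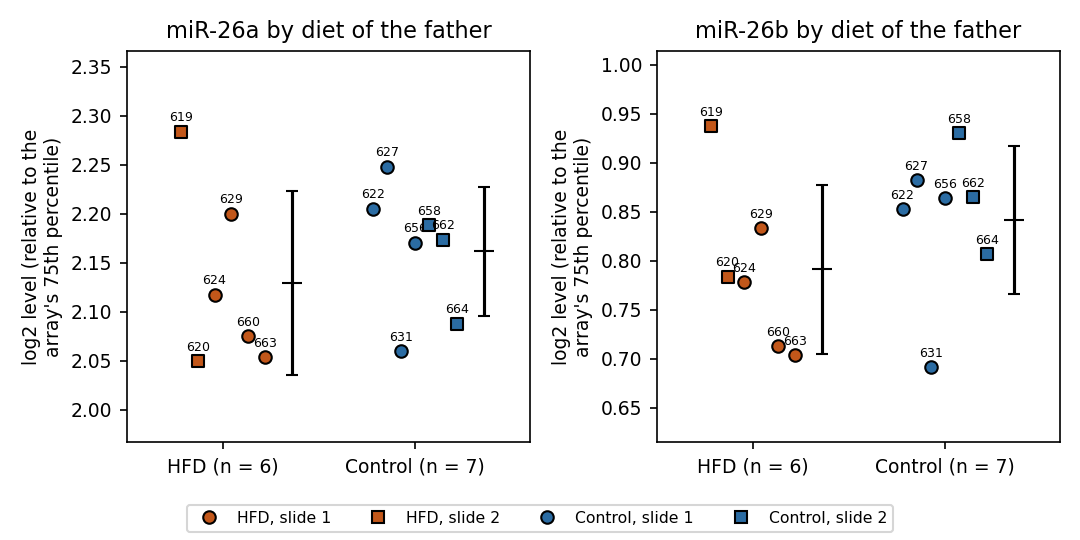
The log2 level of miR-26a (left panel) and miR-26b (right panel) is plotted for each of 6 HFD and 7 Control arrays, with circles for slide 1, squares for slide 2, animal numbers beside the points, and the mean ± SD of each group at its right. HFD 619 is highest in both panels and Control 631 is the lowest Control array in both.

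Neither member passed the test between diets. miR-26a averaged 2.13 ± 0.094 in HFD (SD, n = 6) and 2.16 ± 0.066 in Control (SD, n = 7). The log2 difference was -0.032 ± 0.048 (SE), or 0.978-fold, with a 95% interval of 0.910-fold to 1.05-fold (limma adjusted p = 0.976). miR-26b averaged 0.791 ± 0.086 in HFD (SD, n = 6) and 0.842 ± 0.076 in Control (SD, n = 7). Its log2 difference was -0.050 ± 0.049 (SE), or 0.966-fold, with a 95% interval of 0.898-fold to 1.04-fold (limma adjusted p = 0.966). Both differences were smaller than the SD within either group. Over the 176 tested miRNAs, 0% passed at an adjusted p under 0.05 in limma and 1.14% (2 miRNAs, miR-214 and miR-193*, named here after their values were seen) had an unadjusted p under 0.05. The groups did not overlap for 0 of the 2 members, beside 0% of all tested miRNAs. Levels are relative to the array's bright probes, and in bulk fat fewer cells that make a miRNA and less of it in each cell cannot be told apart.

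The small differences moved with single arrays. Over the fits that left out 1 array in turn, the log2 difference of miR-26a ran from -0.063 without HFD 619 to -0.016 without HFD 620, and that of miR-26b from -0.080 without HFD 619 to -0.033 without HFD 663. With the deposited value table, which holds log2 total gene signal and was scaled here to each array's 75th percentile over the miRNAs with a value on all arrays, they were -0.11 and -0.13 (limma adjusted p = 0.775 for both). The median difference of all tested miRNAs was -0.057 in that setting. The 2 probes of each miRNA, fitted alone, gave -0.021 and -0.043 for miR-26a and -0.061 and -0.040 for miR-26b.

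**Figure D2:**
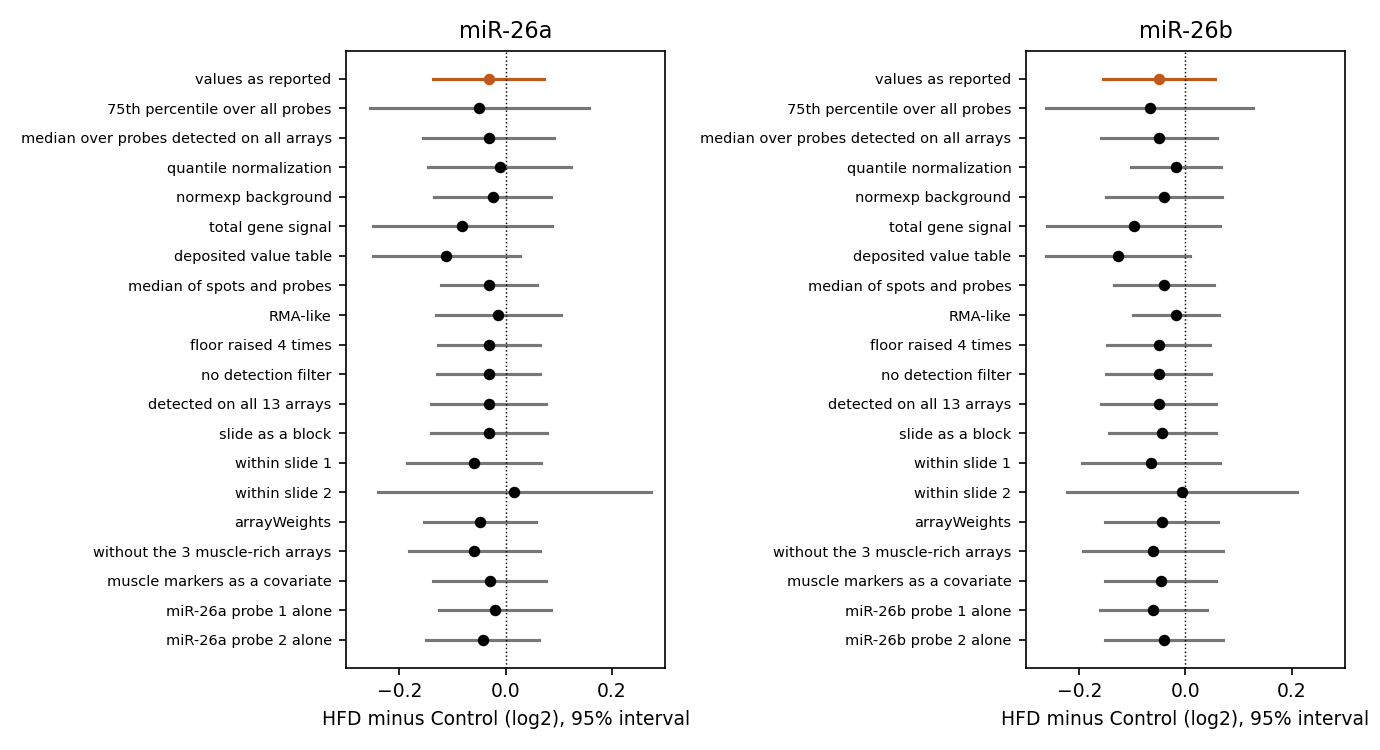
The HFD minus Control log2 difference of miR-26a (left panel) and miR-26b (right panel) is plotted as a point with its 95% limma interval (line) for the values as reported (orange, top) and for each other way of processing. All intervals include 0, and the differences are largest with the deposited value table, at -0.11 and -0.13.

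Both members were among the steadier miRNAs of this fat. Their SD within the diet groups was 0.080 and 0.081 on the log2 scale, and 23 of the 176 tested miRNAs had a lower SD than miR-26a. Among the 144 miRNAs detected on all arrays, where no value is held by a lack of signal, miR-26a was 14th and miR-26b 16th from the lowest SD, beside a median SD of 0.161. The diet difference of miR-26a was also small beside the rest, while that of miR-26b lay near the middle. Of the tested miRNAs, 123 had a larger absolute difference than miR-26a and 98 a larger one than miR-26b, and the median absolute difference was 0.057. These ranks are a description, because the SD also depends on brightness and on how close a miRNA lies to the detection floor.

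**Figure D3:**
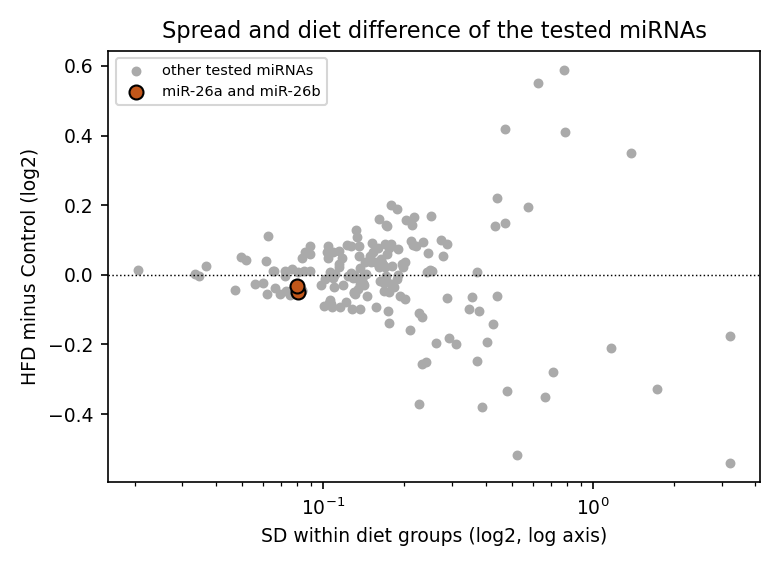
Each of the 176 tested miRNAs is a point, placed by its SD within the diet groups (log2, on a log axis) and its HFD minus Control log2 difference. miR-26a and miR-26b (orange) lie on the left, at SDs of 0.080 and 0.081 and differences of -0.032 and -0.050.

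The levels read for the 2 members rose and fell together from array to array. The miRNAs differed at 2 of the 21 positions compared, and whether a probe of 1 also bound the other was not tested. With each level taken relative to the mean of its diet group, Pearson's r between miR-26a and miR-26b over the 13 arrays was 0.873 (permutation p = 0.00012) and Spearman's rho was 0.874 (permutation p = 0.00036). This was the 1 relation tested. Without the 2 arrays farthest from the median level of miR-26a, HFD 620 and HFD 663, r was 0.900 (n = 11, permutation p = 0.00015). Both levels share the scaling of their array, and the size of the relation depended on it. With quantile normalization r was 0.477 (permutation p = 0.103) and rho was 0.159. With RMA-like processing r was 0.574 (permutation p = 0.0432) and rho was 0.368. Within slide 1, r was 0.957 (n = 8, exact permutation p = 0.000223), and no value is given for the 5 arrays of slide 2.

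**Figure D4:**
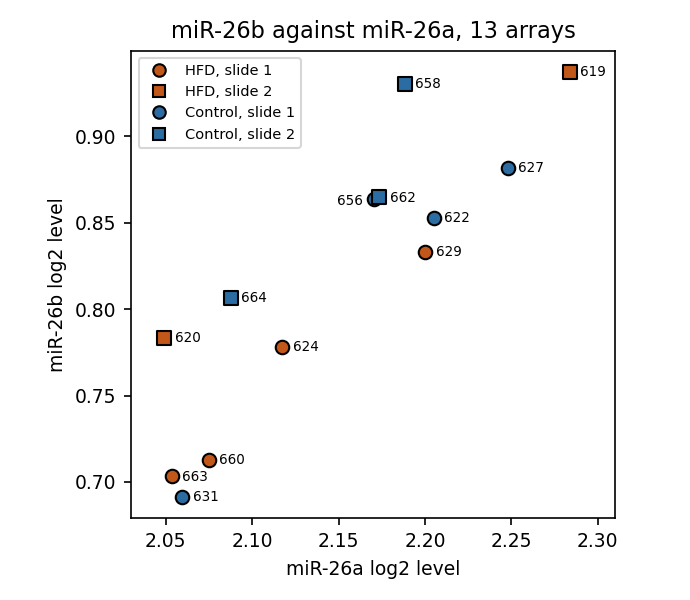
The log2 level of miR-26b is plotted against that of miR-26a for each array, in orange for HFD and blue for Control, with circles for slide 1 and squares for slide 2. Arrays high in 1 member are high in the other (r = 0.873), and HFD and Control arrays are mixed along the whole range.

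Each member was the miRNA most like the other. Over the 13 arrays and 175 other tested miRNAs, the highest Pearson r with miR-26a belonged to miR-26b at 0.873, and the same held in reverse. Next to miR-26a stood miR-10a-5p, from a Hox gene cluster, at 0.816, miR-99a at 0.758, miR-30c at 0.740 and miR-29c at 0.717. Next to miR-26b stood miR-30c at 0.758, miR-100, of the same family as miR-99a, at 0.757, miR-10a-5p at 0.737 and miR-29c at 0.733. Of the 5 miRNAs most like each member, miR-10a-5p, miR-29c and miR-30c stood in both sets. The median r over all others was 0.040 for miR-26a and 0.071 for miR-26b. None of these neighbours passed the test between diets (limma adjusted p from 0.966 to 0.999). The 13 points share the array scaling, and binding of 1 member by the other's probes was not tested. These r values are therefore given as a description.

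Since both members share an array's scaling, their difference within an array does not depend on a factor that multiplies all its signals. This difference, the log2 level of miR-26a minus that of miR-26b, was 1.27 (HFD 620), 1.35 and 1.37 (HFD 629) in HFD as lowest, median and highest, against 1.26 (Control 658), 1.31 and 1.37 (Control 631) in Control. Its SD over all arrays was 0.040, compared with 0.078 for miR-26a and 0.082 for miR-26b alone. The means were 1.34 ± 0.037 in HFD (SD, n = 6) and 1.32 ± 0.043 in Control (SD, n = 7), a difference of 0.018 (two-sided exact permutation p = 0.425, 0.791 when adjusted over the 5 such tests). The smallest p this design allows is 0.000583. The balance between the miRNAs, as read by their probes, thus did not pass the test between diets. Binding of 1 member by the other's probes was not tested.

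The 13 arrays lay on 2 slides, each scanned once, and each slide held both diets. Slide 1 held 4 HFD and 4 Control arrays, and slide 2 held 2 HFD and 3 Control arrays. Within slide 1, the log2 difference of miR-26a was -0.059 ± 0.054 (SE) and within slide 2 it was 0.017 ± 0.095 (SE). For miR-26b these were -0.066 ± 0.055 (SE) and -0.0069 ± 0.080 (SE). With slide as a block, miR-26a differed by -0.031 and miR-26b by -0.044 (limma adjusted p = 0.953 and 0.912). The test of a difference between slides in the diet effect gave 0.076 ± 0.10 (SE) for miR-26a and 0.059 ± 0.097 (SE) for miR-26b (limma interaction, adjusted p = 0.728 and 0.772), and 0.568% of the tested miRNAs passed it. At an unadjusted p under 0.05 in limma, it held 34 of the 176 tested miRNAs, beside 2 for the diet difference.

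The balance between the members was also compared between slides, a choice made after the values were seen. The within-array difference was 1.29 ± 0.036 on slide 2 (SD, n = 5) and 1.35 ± 0.021 on slide 1 (SD, n = 8). This is a difference of -0.059 (two-sided exact permutation p = 0.00389, not adjusted for that choice). On slide 2 the values ran from 1.26 to 1.35, and on slide 1 from 1.31 to 1.37, so the slides overlapped, with 2 slide 1 arrays below the highest of slide 2. The shift was larger for miR-26b, whose probes were higher on slide 2 by 0.060 and 0.089, beside 0.024 and 0.0070 for the probes of miR-26a. The slide shift of neither level passed the test on its own (limma adjusted p = 0.613 for miR-26b and 0.950 for miR-26a, with 0% of the tested miRNAs past it). Leaving out 1 array at a time gave differences from -0.073 to -0.051 (exact permutation p from 0.00253 to 0.0101). The p was 0.138 with RMA-like processing and 0.284 with quantile normalization, at differences of -0.065 and -0.057. Within slides the balance still did not separate the diets, at 0.0063 on slide 1 (exact permutation p = 0.857, n = 4 and 4) and 0.023 on slide 2 (exact permutation p = 0.600, n = 2 and 3). Slide 2 with 2 against 3 arrays cannot reach the threshold.

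**Figure D5:**
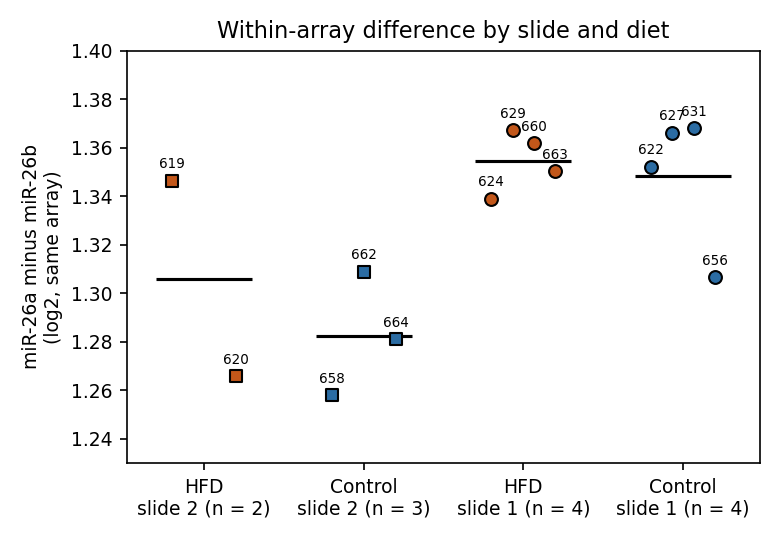
The log2 level of miR-26a minus that of miR-26b on the same array is plotted for HFD and Control arrays of slide 2 (left, squares) and slide 1 (right, circles), with a line at each group's mean. Slide 2 arrays average 1.29 and slide 1 arrays 1.35, and the vertical axis does not start at 0.

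The fat cell miRNAs fixed as a check of the tissue, miR-103, miR-107, miR-143, miR-193, miR-365, miR-378 and miR-378*, were detected on all 13 arrays. Their summed scaled level ran from 6.57 to 7.89 in HFD and from 6.10 to 17.5 in Control, where Control 658 alone stood above 7.89. miR-143 weighed most in this sum. Its log2 level ran from 1.10 to 3.74, while the highest level of any other was 0.823 (miR-365). In limma 6 of the 7 were higher in HFD and 1 was lower, 0 passed, and the median log2 difference was 0.14. Over all 176 tested miRNAs, 91 were higher and 85 lower, with a median of 0.0028. Without Control 658, miR-26a differed by -0.028 and miR-26b by -0.036 (limma adjusted p = 0.980 for both). Muscle miRNAs were also present, unevenly. The summed scaled level of the 3 tested muscle miRNAs (miR-1, miR-133b and miR-499) was 12.9 on HFD 629, 10.9 on Control 662 and 7.10 on Control 664, and at most 0.804 on the other 10 arrays, while miR-208, of heart muscle, was detected on 0 arrays. On these 3 arrays miR-26a stood at 2.20, 2.17 and 2.09 and miR-26b at 0.833, 0.865 and 0.807, inside the range of the other 10. Without the 3 arrays, miR-26a differed by -0.059 and miR-26b by -0.061 (limma adjusted p = 0.685 for both). Summed red blood cell miRNAs (miR-144, miR-451 and miR-144*) ran from 3.15 to 6.91 in HFD and from 1.72 to 5.51 in Control. The tested nerve and glia miRNAs (miR-128, miR-338 and miR-204) were uneven too. Their sum ran from 0.0915 to 1.39 in HFD and from 0.152 to 1.25 in Control. The part of red blood cell or nerve and glia miRNAs in the members' differences was not tested.

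The members belong to a wider set of miRNAs known to act on fat cell differentiation. Of 21 miRNAs listed as promoting it, 19 were tested, miR-26a and miR-26b among them. In limma 0 passed, 11 were higher and 8 lower in HFD, and the median log2 difference was 0.022, beside 91 higher and 85 lower with a median of 0.0028 over all 176 tested miRNAs. The direction of the list's median was not stable: without HFD 629, 8 were higher with a median of -0.027, and with total gene signal 7 were higher with a median of -0.026. Without 1 other array the median ran from 0.0034 (without Control 631) to 0.038 (without HFD 660). miR-193 and miR-365 differed by 0.19 ± 0.10 (SE) and 0.14 ± 0.093 (SE). miR-378, which sits inside the gene for a coactivator of transcription, differed by 0.16 ± 0.11 (SE). miR-30b-5p, of a family that favours fat cell formation in human precursor cells, differed by 0.067 ± 0.051 (SE). Without HFD 624, miR-365 differed by 0.064, and without Control 656 miR-378 differed by 0.10. miR-30b-5p differed by 0.036 without HFD 619 and by 0.10 without HFD 663. The adjusted p of all 4 was 0.966 in limma.

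Of 18 miRNAs listed as restraining fat cell differentiation, 11 were tested. In limma 0 passed, 3 were higher and 8 lower in HFD, and the median log2 difference was -0.072. Over all 176 tested miRNAs, 91 were higher and 85 lower, with a median of 0.0028. The 8 lower ones include miR-222 and the muscle miRNA miR-133b, at -0.54 ± 1.7 (SE). The list's median was -0.029 without Control 658, -0.034 without Control 664, -0.037 without Control 656 and -0.12 with total gene signal. The lowest unadjusted p belonged to miR-221 at -0.52 ± 0.27 (SE), followed by miR-27b, which is known to hold down the fat cell regulator PPARG, at -0.19 ± 0.14 (SE). miR-222, the cluster partner of miR-221, was at the detection floor on 8 arrays, all 6 HFD arrays among them, so no size is given for its difference. miR-125b-5p differed by -0.072 ± 0.060 (SE), and the adjusted p of these 4 was 0.966 in limma. Without Control 658 the differences of miR-221 and miR-27b were -0.26 and -0.11, and without Control 656 that of miR-125b-5p was -0.037.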

How the data were processed

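RNA of 13 samples was hybridised to Agilent 1-colour rat miRNA arrays from 100 ng of total RNA, per the labels' protocols. The deposited spot values are background-subtracted intensity that the authors extracted with Agilent software (Feature Extraction, version 10.7.3.1; grid build rn4), per the file headers, and arrays were not normalized to each other. The deposited value table holds log2 of the total gene signal, found by setting it against the scanner values (26 of 2569 values differed by more than 2e-04). Its column medians ran from 6.95 to 7.77, it showed no centring, and, scaled to each array's 75th percentile, it served as an alternative. RMA and Partek appear in the submitters' processing notes, with no role given.

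Control spots and flagged spots were left out, and the spots of a probe were averaged. Each array was scaled by the 75th percentile of the 260 probes that every array detected. Values below a floor (log2 -5.66) were set to it, and the log2 values of a miRNA's probes were averaged. A miRNA was detected where at least 1 probe had at least 0.5 of its spots well above background, which gave 155 to 196 miRNAs an array, and tested where detected on at least 6 arrays (176 miRNAs). The diet test was limma's (version 3.58.1, R 4.3.3), two-sided, by lmFit and eBayes, with Benjamini-Hochberg adjustment over all 176 at a threshold of 0.05, and single values by exact permutation over all 1716 splits. The array number limits the precision. The files hold no mean spot signal, so the normexp alternative (offset 50) used the median spot signal.

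Members and lists were chosen with earlier results of these data known. The rule for named miRNAs took the members, their opposite arms, the 5 of highest r with each member, and the 4 of lowest p in each differentiation list. miR-26a and miR-26b matched RefSeq entries by name (2 of 2).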

Additional observations from a re-analysis of the deposited data

Results flagged for a closer look

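The within-array difference of miR-26a minus miR-26b on HFD 620, at 1.27, stood apart from the other HFD arrays, since its gap to the nearest of the 6 exceeded Dixon's 95% critical value. It was the 1 value to do so over 18 sets of values tested, where chance sets apart about 1 in 20 sets. HFD 620 lay on slide 2, on which the other 4 arrays stood between 1.26 and 1.35.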

How the results depend on the processing

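The count of 0 miRNAs past the test between diets held in limma under all 30 alternatives run, with the lowest adjusted p at 0.104 within slide 2. Over 32 alternatives each, the log2 difference of miR-26a ran from -0.11 to 0.017 (adjusted p from 0.564 to 1) and that of miR-26b from -0.13 to -0.0069 (adjusted p from 0.370 to 1). The direction of miR-26a turned within slide 2 (0.017), which held 5 arrays, and that of miR-26b turned in none. The relation between the members lost its call with quantile normalization (r = 0.477), and without 1 array r ran from 0.797 to 0.915. The slide interaction ran, without 1 array, from -0.041 to 0.19 for miR-26a and from -0.018 to 0.14 for miR-26b, both turning without HFD 619, at -0.041 and -0.018. With total gene signal it was 0.23 and 0.22 (limma adjusted p = 0.459 and 0.472). The causes were not tested. The within-array difference between diets kept its direction under 21 alternatives (0.0025 to 0.033), of which those within a slide were chosen after seeing the data. No paired analysis was possible because the groups share no replicate numbers.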
